A study of Mus musculus with 27 samples.

Results

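The genes described here are the mouse collagen chains, taken as every gene symbol made of Col, a number, the letter a and a number in a table of read counts from dorsal root ganglia. The rule gave 44 genes of the 55367 in the table, and it used no measured value. Dorsal root ganglia hold the cell bodies of sensory neurons. The study asked how loss of Ptpn2, a tyrosine phosphatase that restrains JAK and STAT signalling, and inhibition of the DNA sensor cGAS bear on regrowth of injured axons. RNA of the L4 and L5 ganglia, whose axons run in the sciatic nerve, was sequenced in 15 bulk libraries, 3 in each of 5 groups. The groups were Ptpn2 KO with sciatic nerve injury, Ptpn2 KO with sham surgery, wild type (WT) with injury and the cGAS inhibitor RU521 given into the sciatic nerve, WT with injury and no RU521, and WT with sham surgery. The series text gives 3 days from injury to collection. The sham samples are called intact in their titles, and the titles call the knockout conditional. The labels do not name the driver of the deletion, the deleted exons, or the strain and age of the mice. They do not say whether each library is a separate mouse, so p-values measure only the spread between these libraries, which may be technical.

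Collagens are secreted or membrane proteins in which 3 chains wind into a triple helix. Fibril-forming chains such as Col1a1, Col1a2 and Col3a1 build the tensile fibres of connective tissue, and in a ganglion they are mostly made by fibroblasts of the capsule and the endoneurium. Type IV chains form the sheet of the basement membrane around vessels, glia and Schwann cells, type VI chains form beaded filaments, and fibril-associated collagens (FACITs) sit on the surface of fibrils. Type XXVIII collagen (Col28a1) is known from mouse peripheral nerve, where it lies around glial cells.

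Libraries held 14813365 to 22414750 counts, and 43 of the 44 collagen genes had enough counts to be tested. The exception, Col4a6, had 1 count in WT sham replicate 2, 2 counts in injured WT replicate 1 and 0 in the other libraries. Ptpn2 itself had 24.1, 26.5 and 18.5 CPM (the count relative to the library total, scaled by edgeR's TMM factors) in KO injured and 15.8, 12.1 and 10.5 CPM in KO sham libraries, against 15.9, 19.8 and 17.5 CPM in WT injured and 11.6, 19.3 and 12.9 CPM in WT sham libraries. Gene counts of Ptpn2 thus do not show the knockout and its libraries are called KO-labelled below. WT sham replicate 2 stood apart from the other 2 WT sham libraries: its 5 skeletal muscle markers summed to 3950 CPM, against 15 and 409 CPM. It had the highest level of the 3 WT sham libraries for 38 of the 43 tested collagen genes, and the highest of all 15 libraries for 26 of them, whereas over all 18517 genes tested it was the highest of the 15 for 14.1%. In the other 12 libraries these markers summed to at most 458 CPM. Counts of called collagen genes are given with and without this library, and counts for other gene lists only with it. WT sham replicates 1 and 3 stood apart in other measures. They took 4.87% and 6.52% of their counts from mitochondrial genes, against 15.2% in WT sham replicate 2 and 7.83% to 18.6% in the other groups. They detected 26235 and 26802 genes, against 34115 in WT sham replicate 2 and 28803 to 34340 in the other groups. RU521 replicate 1 had the lowest of those values, at 7.83% and 28803 genes.

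Per length, 4 genes stood above the rest in every group: Col1a1, Col28a1, Col3a1 and Col1a2. Scaled to exon length, as CPM per kilobase (from the deposited gene lengths), Col1a1 averaged 18.9 in KO-labelled injured, 15.4 in KO-labelled sham, 30.8 in RU521-treated injured WT, 58.0 in injured WT and 55.1 in sham WT ganglia (n = 3 each). Col28a1 averaged 29.4, 32.8, 19.3, 38.8 and 24.1 on this scale in the groups in the same order, which made it the highest collagen gene in both KO-labelled groups, while Col1a1 was the highest in the 3 WT groups. Without WT sham replicate 2, the sham WT means were 35.7 for Col1a1 and 23.0 for Col28a1. Col3a1 and Col1a2 followed, with means over all libraries of 23.7 and 23.3, and the next gene, Col4a1, reached 7.96. In all, 21 of the 44 genes averaged more than 1 on this scale. The highest members of the remaining classes were Col6a1 of the beaded filament chains at 7.78, Col23a1 of the transmembrane collagens at 5.45, Col8a1 of the short-chain network collagens at 3.77, Col14a1 of the FACITs at 3.70, Col18a1 of the multiplexins, the source of endostatin, at 2.35, and the anchoring fibril gene Col7a1 at 0.163. Exons of 13 of the 44 genes overlap another gene, Col3a1 (Gm47302), Col5a1, Col15a1, Col10a1 and Col7a1 among them, and Col4a1 and Col4a2 overlap each other. Reads were counted without regard to strand, so the reads of such overlaps cannot be assigned to either gene.

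The collagen genes lie on many chromosomes, with a few neighbours. On GRCm38 chromosome 8, Col4a1 on the minus strand (8:11198423-11312826) and Col4a2 on the plus strand (8:11312805-11449287) meet head to head. Col4a4 and Col4a3 on chromosome 1 face away from each other across 71 bases, and Col4a6 and Col4a5 on chromosome X across 1308 bases. Col4a5 was detected in every library, at 1.13 to 5.67 CPM, while its neighbour Col4a6 was at or below 2 counts in each. The stretches upstream of Col3a1, Col5a1 and Col28a1 and between Col4a4 and Col4a3 are shown to let their makeup be compared. Averaged over sham and injured ganglia, Col3a1 and Col5a1 were called lower with the KO label and Col28a1 was not. None of these genes was called for the KO label in injured or in sham ganglia alone. Capitals mark matches on either strand to 3 motifs. The CCAAT box is spelled by its name. The TATA box was searched as TATAAA. The GC box was searched as GGGCGG, and no matches overlapped in these stretches. They were read from RefSeq, build GRCm38.p6, and overlap no exon of the deposited annotation.
Col3a1, the 250 bases before the start at chr1:45311288-45311537, plus strand: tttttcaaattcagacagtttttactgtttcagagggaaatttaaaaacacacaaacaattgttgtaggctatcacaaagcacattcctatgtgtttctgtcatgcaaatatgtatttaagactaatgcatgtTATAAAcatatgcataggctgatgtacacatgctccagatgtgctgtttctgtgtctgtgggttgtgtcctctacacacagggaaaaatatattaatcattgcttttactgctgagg
Col5a1, the 250 bases before the start at chr2:27886175-27886424, plus strand: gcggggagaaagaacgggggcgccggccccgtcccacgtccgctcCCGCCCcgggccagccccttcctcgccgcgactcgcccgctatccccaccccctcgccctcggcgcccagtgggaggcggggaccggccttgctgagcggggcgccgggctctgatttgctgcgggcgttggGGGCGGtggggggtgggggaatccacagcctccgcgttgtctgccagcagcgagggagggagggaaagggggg
Col28a1, the 250 bases before the start at chr6:8192618-8192867, minus strand: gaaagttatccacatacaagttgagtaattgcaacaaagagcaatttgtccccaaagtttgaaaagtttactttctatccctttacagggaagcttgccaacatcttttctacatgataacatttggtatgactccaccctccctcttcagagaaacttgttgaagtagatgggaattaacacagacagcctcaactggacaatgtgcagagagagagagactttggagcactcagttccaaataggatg
Col4a4 to Col4a3, the interval at chr1:82586850-82586920, minus strand: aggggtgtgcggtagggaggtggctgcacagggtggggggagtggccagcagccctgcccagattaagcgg
The Col3a1 stretch holds a match to TATAAA, the Col5a1 stretch holds 2 matches to the GC box, and the other stretches hold no match to any of the motifs. Matches at any position were counted, and whether any acts as such a box was not tested. RefSeq windows were found for 35 of the 44 genes, Col1a1 and Col26a1 not among them. Of these 35, 21 held a GC box in the 250 bases before the start, 13 a CCAAT box and 5 a TATA box, against 32.7%, 33.8% and 12.4% of all 32851 windows of that length. A gene counted if any of its windows held the motif, while the shares are over single windows, so the measures are unlike.

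Type I collagen genes were lower in injured ganglia labelled Ptpn2 KO than in injured WT ganglia. Both of its chains, Col1a1 and Col1a2, passed the test, as did the FACIT gene Col14a1 and the gene Col26a1. These were 4 of the 43 tested genes, all lower, at an adjusted p under 0.05 in edgeR's quasi-likelihood test with Benjamini-Hochberg adjustment over all genes, while 0.81% of all genes tested were called lower. No collagen gene was called higher, against 1.39% of all genes. Of the 43, 40 had a negative log2 fold change, with a median of -0.73 against -0.01 over all genes tested. In 25 of 43, every KO-labelled library was below every WT library, which held for 14.3% of all genes tested. In bulk tissue, fewer cells of a type and less RNA per cell cannot be told apart.

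Col1a1 stood at 114, 109 and 150 CPM in KO-labelled injured ganglia and at 375, 388 and 380 CPM in injured WT ganglia. The groups did not overlap, and the difference was -1.62 ± 0.34 on the log2 scale (SE, edgeR adjusted p = 0.016). Col1a2 stood at 208, 196 and 206 CPM against 421, 414 and 429 CPM, with a difference of -1.05 ± 0.25 (edgeR adjusted p = 0.0358). The libraries within each group lay close together for both chains, and the smaller change was that of Col1a2. Col3a1, the chain of the homotrimeric type III collagen, stood at 132, 130 and 164 CPM against 378, 360 and 375 CPM; its difference of -1.39 ± 0.37 did not pass (edgeR adjusted p = 0.073). Of the other fibrillar genes, Col5a2, a chain of the type V collagen that starts fibrils, had a difference of -0.91 ± 0.26 (edgeR adjusted p = 0.101) and Col5a1 one of -0.77 ± 0.29 (edgeR adjusted p = 0.24). All 11 fibrillar genes had negative values, 2 passed, and in 9 the KO-labelled libraries lay below every WT library.

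Col14a1, which codes for a fibril-associated collagen, was the member with the smallest adjusted p, at 21.4, 14.1 and 16.5 CPM in KO-labelled injured against 51.0, 44.5 and 43.5 CPM in injured WT ganglia. The difference was -1.42 ± 0.24 (edgeR adjusted p = 0.00304), and Col14a1 stayed past the threshold without each of the 15 libraries in turn. Col26a1, named collagen although its helical parts are short, stood at 4.07, 2.41 and 5.88 CPM against 16, 11.8 and 12.3 CPM, a difference of -1.70 ± 0.42 (edgeR adjusted p = 0.0489). None of the 4 genes had a KO-labelled library within the WT range. The basement membrane chains showed smaller values: Col4a1 had a difference of -0.45 ± 0.18 and Col4a2 one of -0.73 ± 0.20, and none of the 5 tested type IV genes passed. The 6 beaded filament genes were all negative and none passed, Col6a1 with -1.04 ± 0.32 among them. Col18a1, at 0.30 ± 0.28, Col7a1, at 0.46 ± 0.64, and Col22a1, at 0.00 ± 0.58, were the 3 genes that were not negative.

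The count of 4 called genes moved with single libraries, while all the genes counted stayed lower. It was 14 without WT sham replicate 2, which is in neither group but enters the shared estimate of spread (2.11% of all genes called lower in that fit). It was 2 without KO-labelled sham replicate 2 or 3, KO-labelled injured replicate 3 or RU521 replicate 3, and it was 1 without any of the WT injured libraries or KO-labelled injured replicate 1 or 2. The share of all genes called lower ran from 0.237% to 2.11% over the 15 fits with a library left out. The 1 gene left in those fits was Col14a1; the adjusted p of Col1a1 reached 0.0984, that of Col1a2 0.159 and that of Col26a1 0.244 across the leave-outs.

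**Figure D1:**
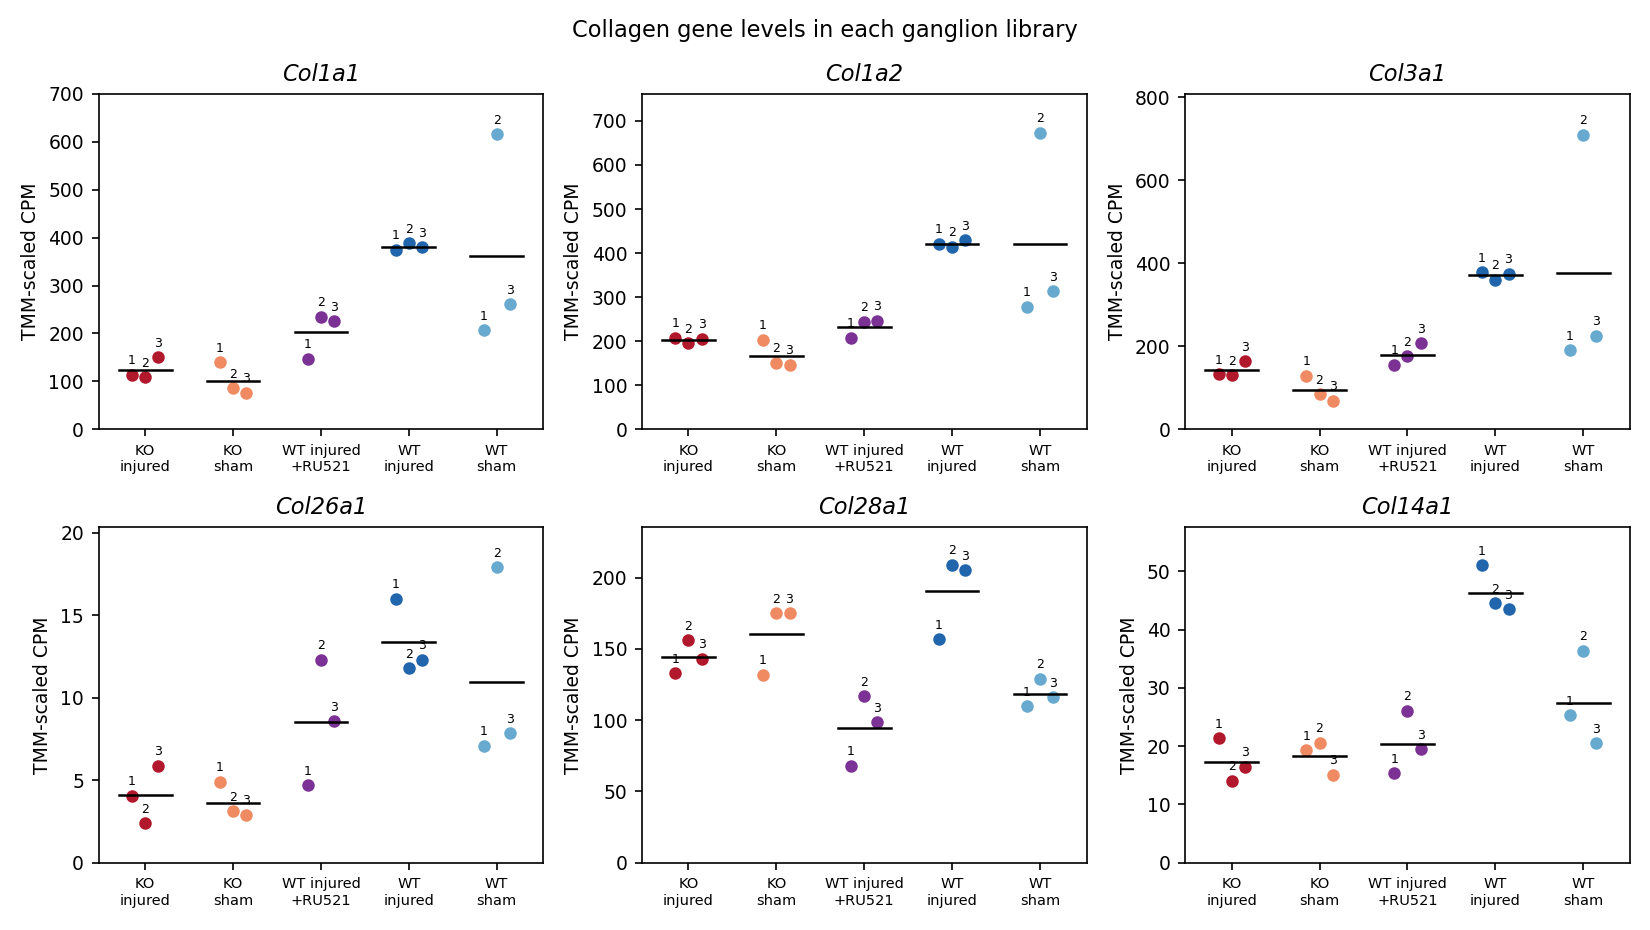
Levels of 6 collagen genes in each of the 15 ganglion libraries, as TMM-scaled CPM; each point is a library with its replicate number, and the bar is the group mean. Col1a1, Col1a2 and Col3a1 lie lower in both KO-labelled groups and in RU521-treated ganglia than in injured WT ganglia, and WT sham replicate 2 lies above the other sham libraries of its group.

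In sham ganglia, 1 collagen gene, Col1a1, passed the test and was lower with the KO label, where 0.027% of all genes tested were called lower and 0.108% higher. Col1a1 stood at 140, 86.2 and 76.3 CPM in KO-labelled sham and at 207, 616 and 261 CPM in WT sham ganglia. The groups did not overlap, and the difference was -1.84 ± 0.34 (edgeR adjusted p = 0.0499). Col1a2 stood at 203, 151 and 147 CPM against 278, 673 and 314 CPM, and Col3a1 at 129, 84.3 and 68.5 CPM against 191, 710 and 225 CPM. Both were lower in every KO-labelled sham library, with differences of -1.33 ± 0.25 and -2.0 ± 0.38 (edgeR adjusted p = 0.0516 for each). Col26a1 stood at 4.91, 3.11 and 2.91 CPM against 7.1, 17.9 and 7.86 CPM; the groups did not overlap, and its difference of -1.58 ± 0.42 did not pass (edgeR adjusted p = 0.191). Over the 43 genes, 34 were negative, the median was -0.54 against -0.04 over all genes tested, and in 11 every KO-labelled library lay below every WT library (5.24% of all genes tested).

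The size of these differences rested on WT sham replicate 2, their sign for the leading genes did not. Without it, 4 genes were called lower (1.52% of all genes in that fit): Col1a1 (-1.21 ± 0.24, edgeR adjusted p = 0.0144), Col1a2 (-0.82 ± 0.13, edgeR adjusted p = 0.0053), Col3a1 (-1.14 ± 0.20, edgeR adjusted p = 0.0089) and Col5a2 (-0.72 ± 0.20, edgeR adjusted p = 0.0497). Col27a1, a fibrillar collagen of low level, was called higher (1.45 ± 0.30, edgeR adjusted p = 0.0158), as were 3.55% of all genes. The 43 genes then had a median of 0.02, with 22 positive and 21 negative. Without WT sham replicates 1 and 3, 16 genes were called lower (2.84% of all genes in that fit) and 39 of 43 were negative. The call of Col1a1 was lost without WT sham replicate 3, any WT injured library, KO-labelled sham replicate 2 or 3, any KO-labelled injured library or RU521 replicate 3 (edgeR adjusted p up to 0.334). The count was 4 without WT sham replicate 1 (0.077% of all genes called lower) or RU521 replicate 1 (0.067%), and it was 3 without KO-labelled sham replicate 1 (0.128%).

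Averaged over sham and injured ganglia, a contrast added after the data were seen, 12 of 43 collagen genes were lower with the KO label and none was higher, against 0.659% of all genes called lower and 1.39% higher. Of the fibrillar genes these were Col1a1 (-1.73 ± 0.24, edgeR adjusted p = 0.000802), Col3a1 (-1.69 ± 0.27, edgeR adjusted p = 0.00231), Col1a2 (-1.19 ± 0.18, edgeR adjusted p = 0.00137), Col5a2 (-1.05 ± 0.19) and Col5a1 (-0.91 ± 0.21). The others were the basement membrane genes Col4a1 (-0.57 ± 0.12) and Col4a2 (-0.76 ± 0.14), the beaded filament genes Col6a1 (-0.99 ± 0.23) and Col6a3 (-1.23 ± 0.29), and Col14a1 (-1.0 ± 0.17), Col15a1 (-1.05 ± 0.24) and Col26a1 (-1.64 ± 0.30). Of these, Col4a1 stood at 50.1, 53.7 and 57.4 CPM in KO-labelled injured and 54.0, 39.7 and 44.3 CPM in KO-labelled sham ganglia, against 69.8, 76.9 and 73.9 CPM in injured WT and 56.1, 96.8 and 70.8 CPM in sham WT ganglia. Col6a3 stood at 8.39, 10.5 and 11.3 CPM and at 5.92, 3.7 and 7.42 CPM in the KO-labelled groups, against 15.6, 15.4 and 17.9 CPM and 8.93, 37.6 and 11.2 CPM in the WT groups, in that order. Col15a1, a multiplexin of basement membrane zones, stood at 4.51, 5.69 and 5.42 CPM and at 6.82, 3.94 and 4.64 CPM, against 11, 11.2 and 9.93 CPM and 6.84, 18.6 and 6.79 CPM. Within injured and within sham libraries, KO-labelled and WT values did not overlap for Col4a1 and Col6a3, and for Col15a1 they overlapped in sham libraries. Col28a1, the other gene of high level, stood at 133, 156 and 143 CPM in KO-labelled injured and 132, 175 and 175 CPM in KO-labelled sham ganglia, against 157, 209 and 205 CPM in injured WT and 110, 129 and 116 CPM in sham WT ganglia. Its averaged difference was 0.02 ± 0.13, with -0.40 ± 0.18 in injured and 0.44 ± 0.18 in sham ganglia, neither of which passed (edgeR adjusted p = 0.356 and 0.496). Of the 12 lower genes, 8 had a promoter window, and 3 of these held a CCAAT box, 3 a GC box and 1 a TATA box. The count of 12 was 14 without WT sham replicate 2 (2.57% of all genes called lower in that fit) and 7 or 8 without any WT injured or KO-labelled injured library or without KO-labelled sham replicate 2 or 3. Over the 15 fits with a library left out, 0.391% to 2.57% of all genes were called lower. Col1a1, Col1a2, Col3a1, Col4a2, Col5a2, Col14a1 and Col26a1 stayed called without each library in turn.

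**Figure D2:**
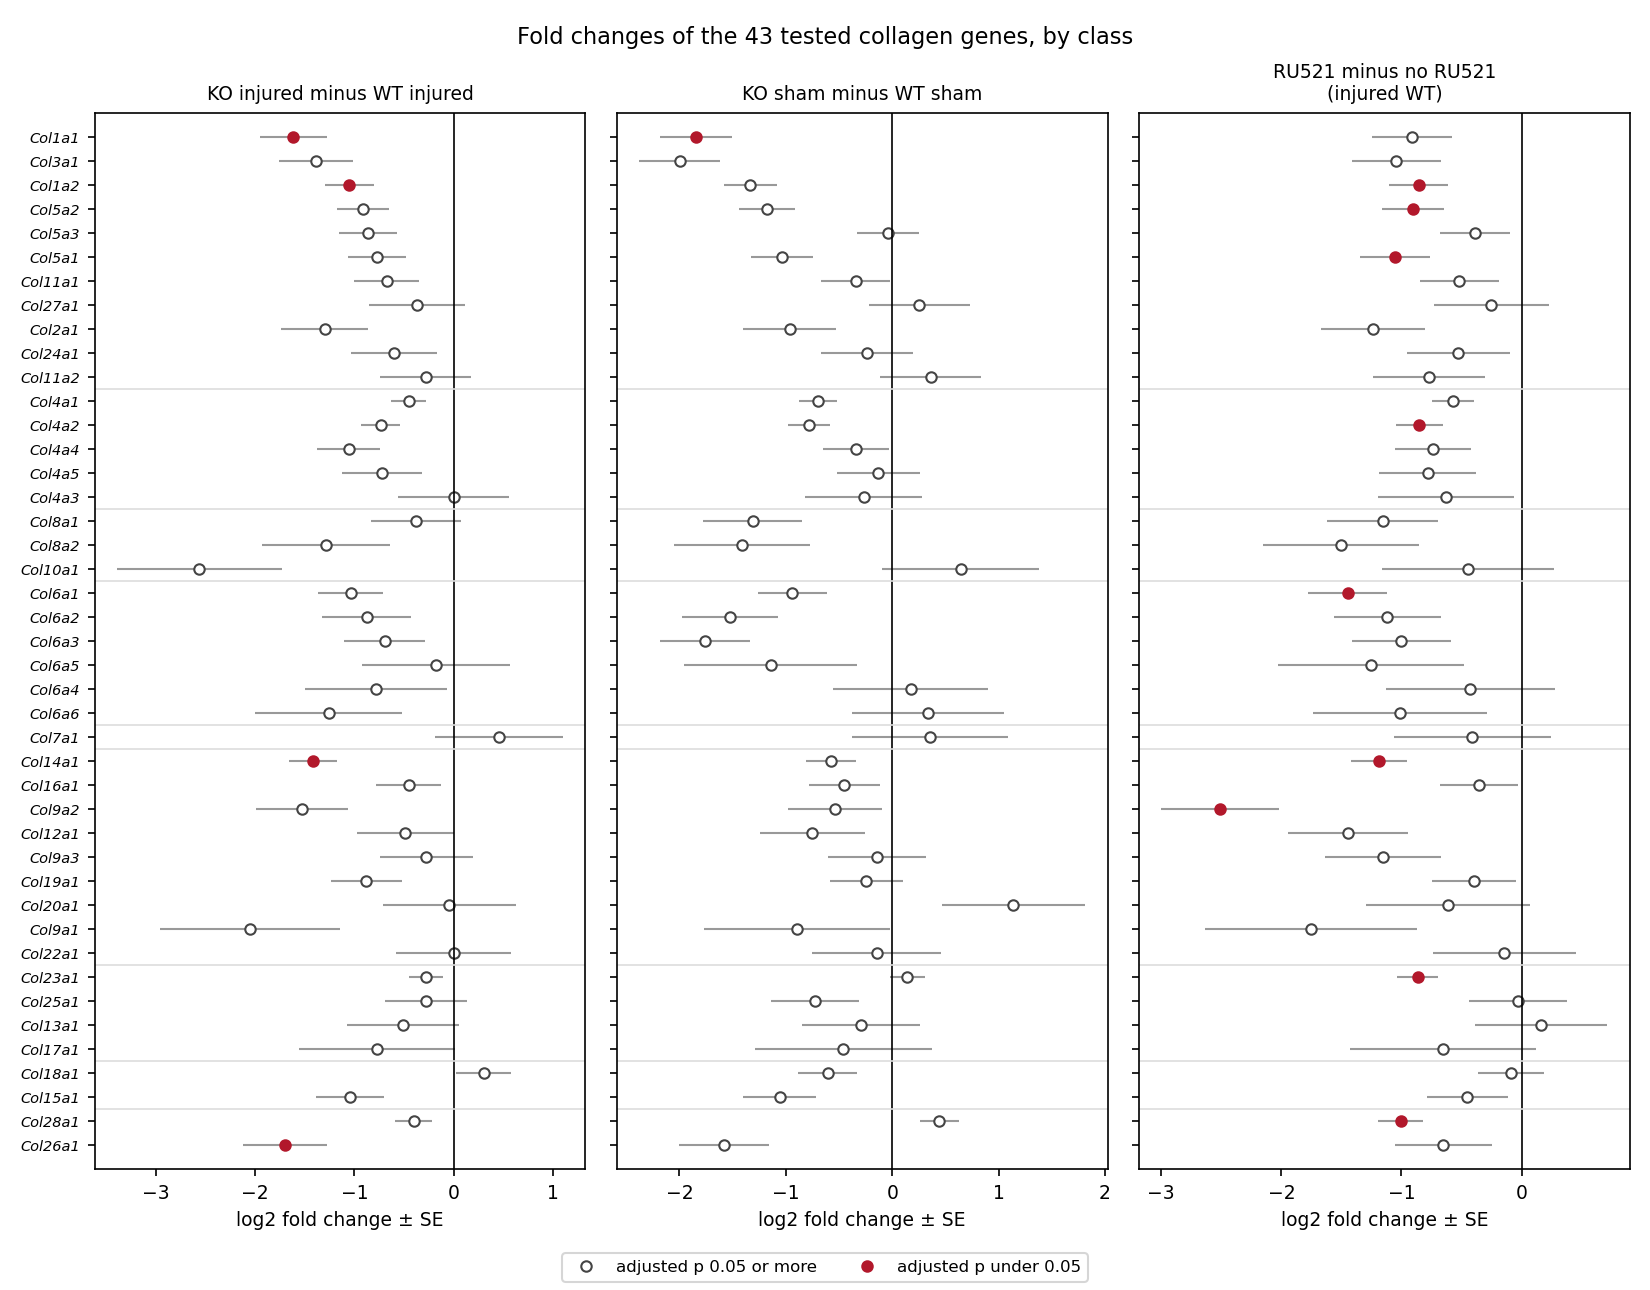
Log2 fold changes with SE of the 43 tested collagen genes, grouped by class from fibrillar genes at the top to Col28a1 and Col26a1 at the bottom, for the KO label in injured and in sham ganglia and for RU521 in injured WT ganglia; filled points passed at an adjusted p under 0.05. Most points lie left of 0, with 4, 1 and 9 filled.

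In injured WT ganglia treated with RU521, 9 collagen genes of 6 classes were lower than in injured WT ganglia without the inhibitor. They were Col1a2, Col5a1 and Col5a2 of the fibrillar genes, Col4a2, Col6a1, the FACITs Col9a2 and Col14a1, the transmembrane collagen Col23a1, and Col28a1. These 9 of 43 compare with 4.48% of all genes tested called lower, and none was called higher, against 5.1% of all genes. In 42 of 43 the value was negative, with a median of -0.78 against -0.03 over all genes tested, and in 26 every RU521 library lay below every untreated one (16.9% of all genes tested). The comparison shares its untreated WT libraries with that of the KO label in injured ganglia, so the values of both are set side by side and not related to each other.

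Col9a2, a chain of type IX collagen best known from cartilage, had the most negative difference, at 1.78, 0.883 and 0.813 CPM in RU521-treated against 6.29, 6.67 and 7.03 CPM in untreated injured WT ganglia. The difference was -2.51 ± 0.49 (edgeR adjusted p = 0.00659); in KO-labelled injured ganglia Col9a2 stood at 2.13, 1.54 and 3.24 CPM, with a difference of -1.53 ± 0.46 that did not pass (edgeR adjusted p = 0.125). Col28a1 stood at 68.0, 117 and 98.7 CPM with RU521 against 157, 209 and 205 CPM without. Its 3 treated libraries all lay below the untreated ones, with a difference of -1.01 ± 0.19 (edgeR adjusted p = 0.00525), whereas the KO label in injured ganglia gave -0.40 ± 0.18 (edgeR adjusted p = 0.356). Col23a1 stood at 22.6, 16.8 and 23.0 CPM against 40.2, 35.8 and 37.6 CPM, a difference of -0.86 ± 0.17 (edgeR adjusted p = 0.00693). This membrane-bound collagen stood at 33.9, 28.1 and 31.6 CPM in KO-labelled injured ganglia, -0.28 ± 0.17 from untreated WT (edgeR adjusted p = 0.523).

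Col14a1 stood at 15.4, 26.1 and 19.5 CPM with RU521, a difference of -1.19 ± 0.24 (edgeR adjusted p = 0.00714). All 3 treated libraries lay below the untreated ones. Col6a1, a chain of every type VI collagen assembly, stood at 18.7, 22.2 and 21.7 CPM against 49.6, 59.2 and 62.1 CPM, a difference of -1.45 ± 0.33 (edgeR adjusted p = 0.0136), and Col4a2 at 22.9, 22.1 and 26.0 CPM against 43.7, 39.1 and 45.1 CPM, a difference of -0.85 ± 0.20 (edgeR adjusted p = 0.0148). Neither overlapped between the groups. Col1a2 stood at 208, 244 and 246 CPM (-0.86 ± 0.25, edgeR adjusted p = 0.0404), Col5a1 at 6.12, 6.94 and 7.01 CPM against 15.6, 12.1 and 14.1 CPM (-1.05 ± 0.29, edgeR adjusted p = 0.0342), and Col5a2 at 17.6, 27.9 and 28.7 CPM against 51.6, 48.0 and 39.0 CPM (-0.90 ± 0.26, edgeR adjusted p = 0.0405). Col1a1 stood at 147, 235 and 225 CPM and was below every untreated library, but its difference of -0.91 ± 0.33 did not pass (edgeR adjusted p = 0.0927), nor did that of Col3a1, at 156, 176 and 208 CPM (-1.05 ± 0.37, edgeR adjusted p = 0.0856). Col26a1 stood at 4.69, 12.3 and 8.57 CPM, overlapping the untreated libraries, with a difference of -0.65 ± 0.41 (edgeR adjusted p = 0.346).

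The count of 9 was 17 without WT sham replicate 2 (8.14% of all genes called lower in that fit), 4 without RU521 replicate 1 (2.32% called lower), 4 without injured WT replicate 3 (1.79%) and 5 without injured WT replicate 2 (1.45%). Col9a2, Col14a1, Col23a1 and Col28a1 kept an adjusted p under 0.05 without each library in turn. RU521 replicate 1 had the lowest level of its group for Col1a1, Col1a2, Col3a1 and Col28a1.

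Injury alone moved few collagen genes by the test, and in WT ganglia their number depended on WT sham replicate 2. In WT ganglia, injury raised Col28a1 (157, 209 and 205 CPM in injured against 110, 129 and 116 CPM in sham ganglia; 0.69 ± 0.18, edgeR adjusted p = 0.0205) and Col14a1 (51.0, 44.5 and 43.5 CPM against 25.3, 36.4 and 20.5 CPM; 0.76 ± 0.23, edgeR adjusted p = 0.0366). For both, every injured library lay above every sham library. These 2 of 43 genes compare with 8.6% of all genes tested called higher, and no collagen gene was called lower, against 7.98% of all genes. Type I and III genes differed by 0.08 ± 0.33 for Col1a1, -0.00 ± 0.25 for Col1a2 and -0.02 ± 0.37 for Col3a1. The anchoring fibril gene Col7a1, at 2.32, 1.65 and 2.77 CPM in injured against 0.174, 1.25 and 0.374 CPM in sham ganglia, did not pass (1.95 ± 0.70, edgeR adjusted p = 0.0695).

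Without WT sham replicate 2, 20 of 43 genes were called higher after injury and none lower, against 17.7% of all genes called higher in that fit, and 40 of 43 were positive with a median of 0.69. Among them were Col3a1 (0.82 ± 0.21, edgeR adjusted p = 0.007), Col1a1 (0.69 ± 0.24, edgeR adjusted p = 0.0412), Col6a1 (1.1 ± 0.21, edgeR adjusted p = 0.0011), Col8a1 (1.32 ± 0.24, edgeR adjusted p = 0.0008) and Col12a1 (1.69 ± 0.30, edgeR adjusted p = 0.0007), a FACIT of tendon and other dense tissue. With WT sham replicate 2 as the sole sham library, whose own spread was taken from the other groups, 5 genes were called lower instead (2.84% of all genes called lower in that fit), among them Col3a1 (-0.89 ± 0.25, edgeR adjusted p = 0.0451), Col6a2 (-1.24 ± 0.25, edgeR adjusted p = 0.011) and Col8a2 (-1.61 ± 0.36, edgeR adjusted p = 0.0181), and 31 of 43 were negative. The direction of injury for Col1a2, Col3a1, Col6a2, Col6a3 and Col8a2 in WT ganglia thus depends on which sham libraries are used. Col28a1 was positive in all 3 fits, at 0.69, 0.75 and 0.60, and passed in the first 2 of them; the count of 2 was 0 without WT sham replicate 1 or 3 or injured WT replicate 2 or 3, and 1 without injured WT replicate 1. In those 5 fits 3.63% to 5.81% of all genes were called higher.

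Markers of other cells moved with injury, and their part in these results was not tested. In WT ganglia, 4 of 8 fibroblast markers were called higher after injury (median 0.85), as were 3 of 8 myelinating Schwann cell, 7 of 7 macrophage, 5 of 5 neutrophil and 5 of 5 red blood cell markers, while 6 of 9 sensory neuron markers were called lower. The fibroblast list summed to 2370 to 2440 CPM in injured against 1060 to 2030 CPM in sham WT libraries, and the Schwann cell list to 21700 to 23500 CPM against 9910 to 16000 CPM. In KO-labelled ganglia, 1 of 8 fibroblast, 6 of 7 macrophage and 3 of 5 neutrophil markers were called higher after injury. None of the 8 Schwann cell or 5 red blood cell markers was called there, with medians of 0.091 and -0.007, against 0.715 and 1.821 in WT ganglia. The difference of the injury effect was called for no marker of either list. Called lower in KO-labelled ganglia were 5 of 9 sensory neuron, 6 of 8 fat and 2 of 6 satellite glia markers. Of all genes, 8.6% were called higher and 7.98% lower after injury in WT ganglia, and 6.34% and 4.57% in KO-labelled ganglia. These marker counts come from the fit of all libraries, WT sham replicate 2 included.

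**Figure D3:**
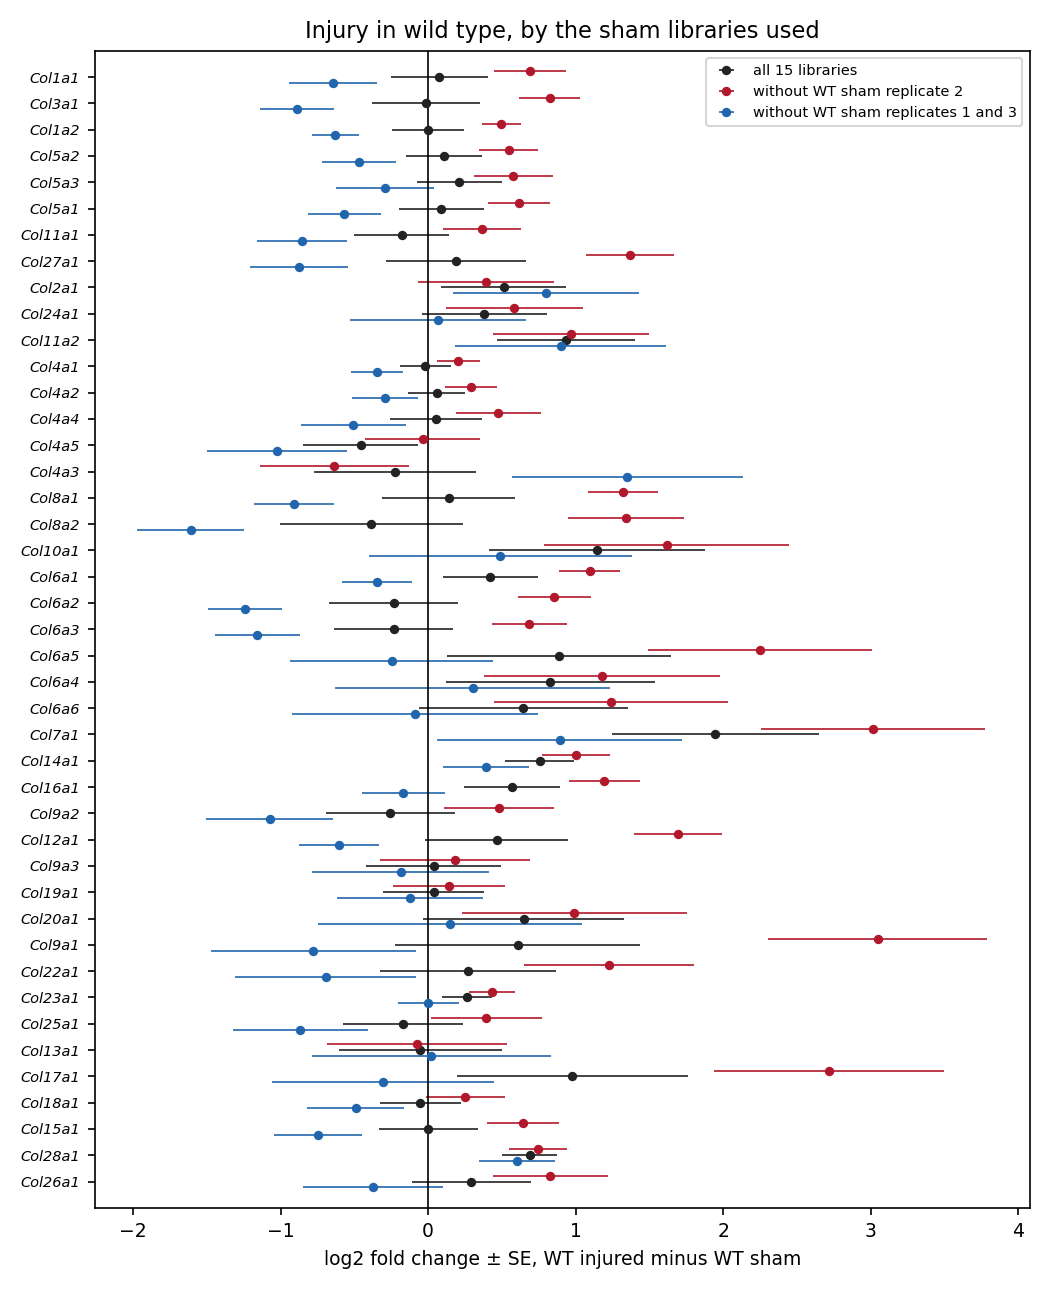
Log2 fold changes with SE for injured minus sham WT ganglia of the 43 tested collagen genes, in fits with all 15 libraries, without WT sham replicate 2, and without WT sham replicates 1 and 3. The red points, without replicate 2, lie right of 0 for 40 genes, and the blue points, with replicate 2 as the sole WT sham library, lie left of 0 for 31.

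Injury in KO-labelled ganglia was compared within those ganglia, and WT libraries entered only the shared filter, scaling and estimate of spread. It moved no collagen gene past the threshold in edgeR, where 6.34% of all genes tested were called higher and 4.57% lower. At an unadjusted p under 0.05 there were 7 genes (25.0% of all genes), and DESeq2 called 3 (15.7% of all genes). With positive values these were Col18a1 (23.5, 21.6 and 17.1 CPM in injured against 13.3, 7.29 and 13.9 CPM in sham ganglia; 0.85 ± 0.28, edgeR adjusted p = 0.0613), Col7a1 (3.01, 2.81 and 3.44 CPM against 0.299, 0.956 and 0.97 CPM; 2.05 ± 0.69, edgeR adjusted p = 0.0697), Col8a1 (1.07 ± 0.47) and Col6a5 (1.85 ± 0.81). With negative values they were Col9a2 (-1.25 ± 0.46), Col4a5 (-1.05 ± 0.41) and Col10a1 (-2.06 ± 0.84). Without WT sham replicate 2, whose spread enters the shared dispersion, 5 genes were called higher, against 9.42% of all genes in that fit, and 2 lower, against 9.63%. Without RU521 replicate 1 or 2 there was 1, with 12.5% of all genes called in each of those fits.

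The difference of the injury effect between KO-labelled and WT ganglia passed for none of the 43 genes in edgeR, nor in DESeq2, where 0.448% and 1.59% of all genes tested were called. An unadjusted p under 0.05 was found for 4 (9.78% of all genes): Col28a1 (-0.85 ± 0.26, edgeR adjusted p = 0.243), Col10a1 (-3.20 ± 1.11), Col14a1 (-0.84 ± 0.33) and Col18a1 (0.91 ± 0.39). Without WT sham replicate 2, 1 gene was called lower (2.14% of all genes in that fit) and 40 of 43 were negative, and with it as the sole WT sham library 6 were called higher (2.46% of all genes).

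The share of all counts taken by the 44 genes was lower with the KO label. It was 0.0991%, 0.0921% and 0.104% in KO-labelled injured, 0.0959%, 0.0793% and 0.0785% in KO-labelled sham, 0.0891%, 0.113% and 0.115% in RU521-treated injured WT, 0.198%, 0.197% and 0.203% in injured WT, and 0.117%, 0.297% and 0.137% in sham WT libraries. The 95% Clopper-Pearson intervals of these shares, which cover counting error alone, reached at most 0.00264 percentage points to either side. All 6 KO-labelled libraries lay below all 6 WT libraries without RU521. The means were 0.0915% ± 0.0106 in KO-labelled and 0.192% ± 0.0632 in WT libraries (SD, n = 6 each). A 2-sided exact permutation test of labels within sham and within injured libraries gave p = 0.005, the smallest p it can give (Benjamini-Hochberg 0.04 over 24 tests of this kind). Without WT sham replicate 2, the WT mean was 0.17% ± 0.0404 (SD, n = 5) and the difference -0.0716 in place of -0.1 percentage points. The exact permutation p was then 0.005, the smallest possible in that case too. RU521-treated libraries averaged 0.106% ± 0.0145 against 0.199% ± 0.00331 in injured WT libraries (SD, n = 3 each; exact permutation p = 0.1, the smallest possible with 3 against 3).

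The makeup of the collagen counts is given as a description, with no test. Col1a1, Col1a2 and Col3a1 together gave 46.8% ± 1.54 of collagen counts in KO-labelled injured, 41.7% ± 6.94 in KO-labelled sham, 58.4% ± 1.15 in RU521-treated, 59.1% ± 1.52 in injured WT and 61.8% ± 3.46 in sham WT ganglia (SD, n = 3 each). Col28a1 gave 14.4% ± 1.66, 19.0% ± 4.48, 8.92% ± 1.51, 9.57% ± 1.24 and 7.53% ± 2.87 in the same order. Without WT sham replicate 2, the sham WT means were 59.8% and 9.16%. The share from the 3 fibrillar genes was 36.2% to 49.5% in the KO-labelled libraries, 57.1% to 59.1% in the RU521 libraries and 58.0% to 65.7% in the WT libraries without RU521.

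The ratio of Col1a1 to Col1a2, whose chains join at 2 to 1 in the usual type I trimer, was also lower with the KO label. Per length it was 1.04, 1.05 and 1.38 in KO-labelled injured and 1.31, 1.08 and 0.981 in KO-labelled sham libraries, against 1.69, 1.77 and 1.68 in injured WT and 1.41, 1.73 and 1.57 in sham WT libraries. The groups did not overlap, with means of 1.14 ± 0.161 in KO-labelled and 1.64 ± 0.131 in WT libraries (SD, n = 6 each; exact permutation p = 0.005, the smallest possible, Benjamini-Hochberg 0.04; p = 0.01 without WT sham replicate 2). With RU521 it was 1.63 ± 0.254 against 1.71 ± 0.0521 in injured WT ganglia (SD, n = 3 each; exact permutation p = 0.9). The ratio of Col28a1 to Col1a1 per length averaged 1.97 ± 0.767 in KO-labelled and 0.598 ± 0.17 in WT libraries (SD, n = 6 each; exact permutation p = 0.005, Benjamini-Hochberg 0.04; p = 0.01 without WT sham replicate 2). That of Col4a1 to Col4a2, the paired basement membrane chains, averaged 1.81 ± 0.232 in KO-labelled and 1.58 ± 0.215 in WT libraries (exact permutation p = 0.135, Benjamini-Hochberg 0.27; p = 0.175 without WT sham replicate 2). These measures were chosen after the values had been seen. The collagen share and the ratios that involve Col1a1 all hold the Col1a1 counts, so their p-values are not independent of each other.

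**Figure D4:**
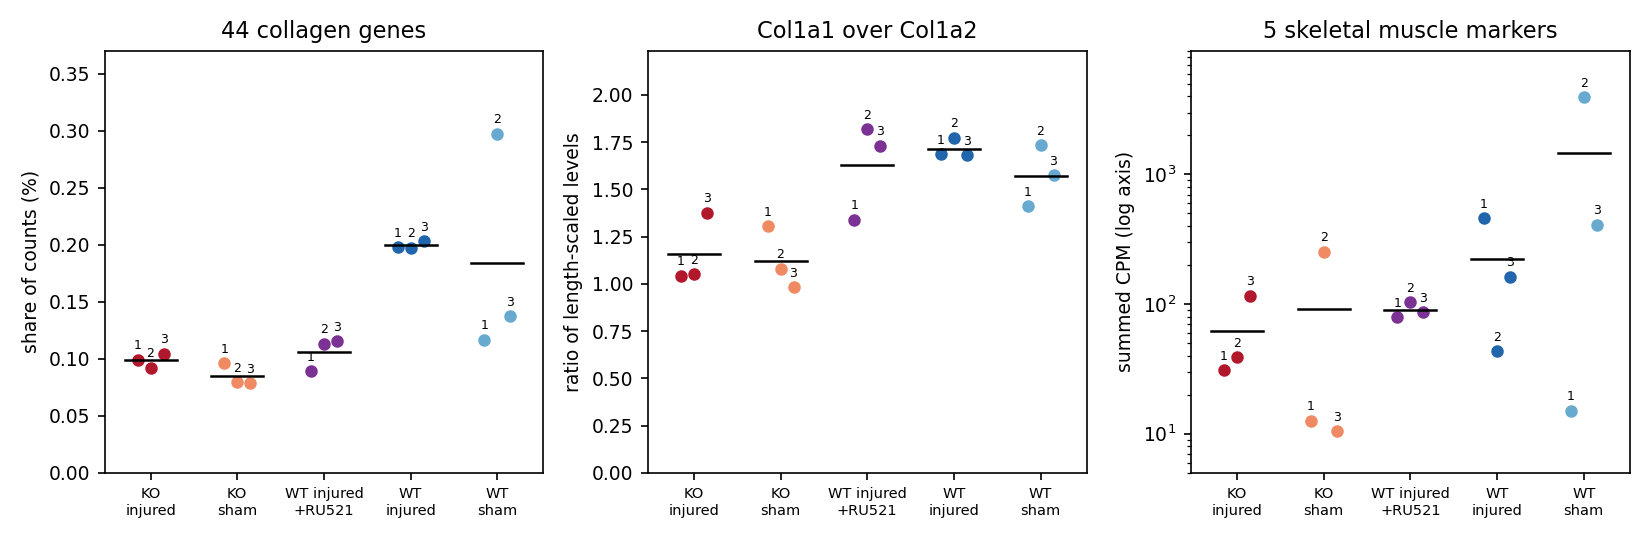
Share of counts from the 44 collagen genes in percent, ratio of Col1a1 to Col1a2 per length, and summed CPM of 5 skeletal muscle markers on a log axis, for each of the 15 ganglion libraries; bars are group means. The KO-labelled libraries lie below the WT libraries without RU521 in the first 2 panels, and WT sham replicate 2 has the highest value in the first and last.

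Genes that make, cross-link and bind collagen were read beside the chains. Their counts stand beside 0.81% of all genes called lower and 1.39% called higher with the KO label in injured ganglia, and 4.48% and 5.1% with RU521. Of 18 genes for chain modification and folding, none passed with the KO label in injured ganglia (median -0.28), and 8 were lower with RU521 (median -0.52). Among these were P3h2, a prolyl 3-hydroxylase (-3.53 ± 0.62, edgeR adjusted p = 0.00386), Plod2, which hydroxylates lysines for cross-links (-1.97 ± 0.37, edgeR adjusted p = 0.00548), and P3h1 (-1.06 ± 0.16, edgeR adjusted p = 0.00176). Serpinh1, the collagen chaperone HSP47, stood at 93.5, 118 and 87.0 CPM with RU521 against 140, 152 and 145 CPM without (-0.55 ± 0.16, edgeR adjusted p = 0.0437), and at 145, 151 and 136 CPM in KO-labelled injured ganglia, -0.02 ± 0.16 from injured WT (edgeR adjusted p = 0.983). Of 13 genes for procollagen processing and cross-linking, none passed with the KO label in injured ganglia and 5 were lower with RU521, among them the lysyl oxidase gene Lox (-1.45 ± 0.25, edgeR adjusted p = 0.00364) and the procollagen peptidase gene Adamts2 (-1.73 ± 0.36, edgeR adjusted p = 0.00934). Of 11 genes for degradation and its inhibitors, 1 passed with the KO label in injured ganglia: Timp1, a metalloproteinase inhibitor, at 95.2, 90.3 and 70.6 CPM against 6.84, 9.70 and 10.3 CPM (3.26 ± 0.60, edgeR adjusted p = 0.00695). With RU521, 4 of the 11 were lower, Mmp2 (-1.06 ± 0.18) among them, and Timp2 was higher (0.86 ± 0.23, edgeR adjusted p = 0.0264). Of 9 collagen receptor genes, none passed with the KO label and 1 was lower with RU521, the integrin subunit Itgb1 (-0.97 ± 0.16, edgeR adjusted p = 0.00306). Of 9 tested small leucine-rich proteoglycans, which bind fibrils and set their width, 2 were lower with the KO label, Lum (-0.79 ± 0.17, edgeR adjusted p = 0.0241) and Prelp (-1.10 ± 0.24, edgeR adjusted p = 0.0213), and 7 with RU521, Ogn (-1.41 ± 0.17) and Fmod (-2.67 ± 0.57) among them. In sham ganglia none of these genes passed with the KO label. Averaged over sham and injured ganglia, where 0.659% of all genes were called lower, 2 of the 18, 1 of the 13, 1 of the 11, none of the 9 receptor genes and 2 of the 9 proteoglycan genes were lower, and none was higher.

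Marker lists of the cell types that a ganglion sample can hold moved with some of these results, and their part in them was not tested. No gene of these lists was at 0 in every library. The shares of all genes called are those given for the collagen pathway genes, and for the KO label in sham ganglia they are 0.027% lower and 0.108% higher. The 8 fibroblast markers summed to 1770 to 2020 CPM in KO-labelled injured and 2370 to 2440 CPM in injured WT libraries. Mfap5 (-1.06 ± 0.24, edgeR adjusted p = 0.0284) and Lum were called lower. Pdgfra, a receptor that marks fibroblasts, stood at 23.4, 18.0 and 19.2 against 25.1, 25.0 and 20.8 CPM (-0.22 ± 0.25), Dcn had a difference of -0.20 ± 0.21 and Cd34 one of -0.14 ± 0.11. Dpt averaged 1.76 against 3.17 CPM, Pi16 10.6 against 21.7 CPM and Clec3b 0.383 against 2.19 CPM. All 8 fibroblast markers were negative, with a median of -0.815. In 5 of 8, every KO-labelled library lay below every WT library (14.3% of all genes tested). With RU521 the same list summed to 996 to 1190 CPM, and 4 of 8 were lower, Pdgfra (-1.32 ± 0.26, edgeR adjusted p = 0.00663) included. For all 8, every RU521 library lay below every untreated one (16.9% of all genes tested). The 8 myelinating Schwann cell markers summed to 10100 to 12700 CPM in KO-labelled injured, 8060 to 9840 CPM in RU521-treated and 21700 to 23500 CPM in injured WT libraries. With the KO label all 8 were negative (median -0.853) and 2 were called lower, Pmp22 and Mbp. All 8 were called lower with RU521 (median -1.309). Every KO-labelled injured library lay below every untreated injured WT library for 6 of the 8 (14.3% of all genes tested). The same held for every RU521 library for all 8 (16.9%). The 9 sensory neuron markers summed to 4870 to 5010 CPM, 5770 to 9030 CPM and 4470 to 5100 CPM in these groups, with none called for the KO label and 4 called higher for RU521, Calca and Scn10a among them. The 7 endothelial markers summed to 188 to 204 CPM, 127 to 141 CPM and 217 to 243 CPM in the same order, with 0 and 3 called lower. The 7 mural cell markers summed to 297 to 435 CPM, 290 to 446 CPM and 480 to 526 CPM in the same order, with 0 and 1 called lower. The 5 red blood cell markers summed to 5290 to 6580 CPM, 3270 to 7190 CPM and 10700 to 10800 CPM in the same order. For all 5, every KO-labelled injured and every RU521 library lay below every untreated injured WT library, and none was called. Such separation held for 14.3% of all genes tested with the KO label and 16.9% with RU521. The 5 neutrophil markers summed to 3690 to 3800 CPM, 1710 to 5130 CPM and 3000 to 4000 CPM, and none was called. The 6 satellite glia markers had none called in either comparison. In sham ganglia the fibroblast list summed to 1260, 1630 and 1500 CPM in KO-labelled against 1060, 2030 and 1110 CPM in WT libraries, and none was called. Without WT sham replicate 2, every KO-labelled sham sum lay above the WT sham sums. With all libraries, 5 of the 8 markers were negative for the KO label in sham ganglia and 3 were positive. Averaged over sham and injured ganglia, 3 of 8 fibroblast markers were lower with the KO label (Mfap5, Lum and Clec3b), as were 2 of 8 Schwann cell markers, while 4 of 8 fat markers and 1 of 6 satellite glia markers were higher. In sham ganglia, 4 of 8 fat markers were called higher with the KO label, Ucp1 (6.62 ± 0.60, edgeR adjusted p = 0.000186) first among them, and the list summed to 172 to 290 CPM in KO-labelled against 12.5 to 76.3 CPM in WT sham libraries. Ucp1 was also called higher in KO-labelled injured ganglia (2.88 ± 0.57, edgeR adjusted p = 0.0117). Of 7 macrophage markers, 1 was higher with the KO label in injured ganglia and 2 were lower with RU521. Of 5 cartilage and 5 bone markers, none was called for the KO label, and 2 cartilage markers were lower with RU521, Sox9 and Cnmd. The 5 skeletal muscle markers summed to 30.9 to 116 CPM in KO-labelled injured and 43.3 to 458 CPM in injured WT libraries. In sham libraries they summed to 10.5 to 254 CPM with the KO label and 15 to 3950 CPM in WT. All 5 were negative with the KO label in injured (median -1.79) and in sham ganglia (median -4.14), and none was called.

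**Figure D5:**
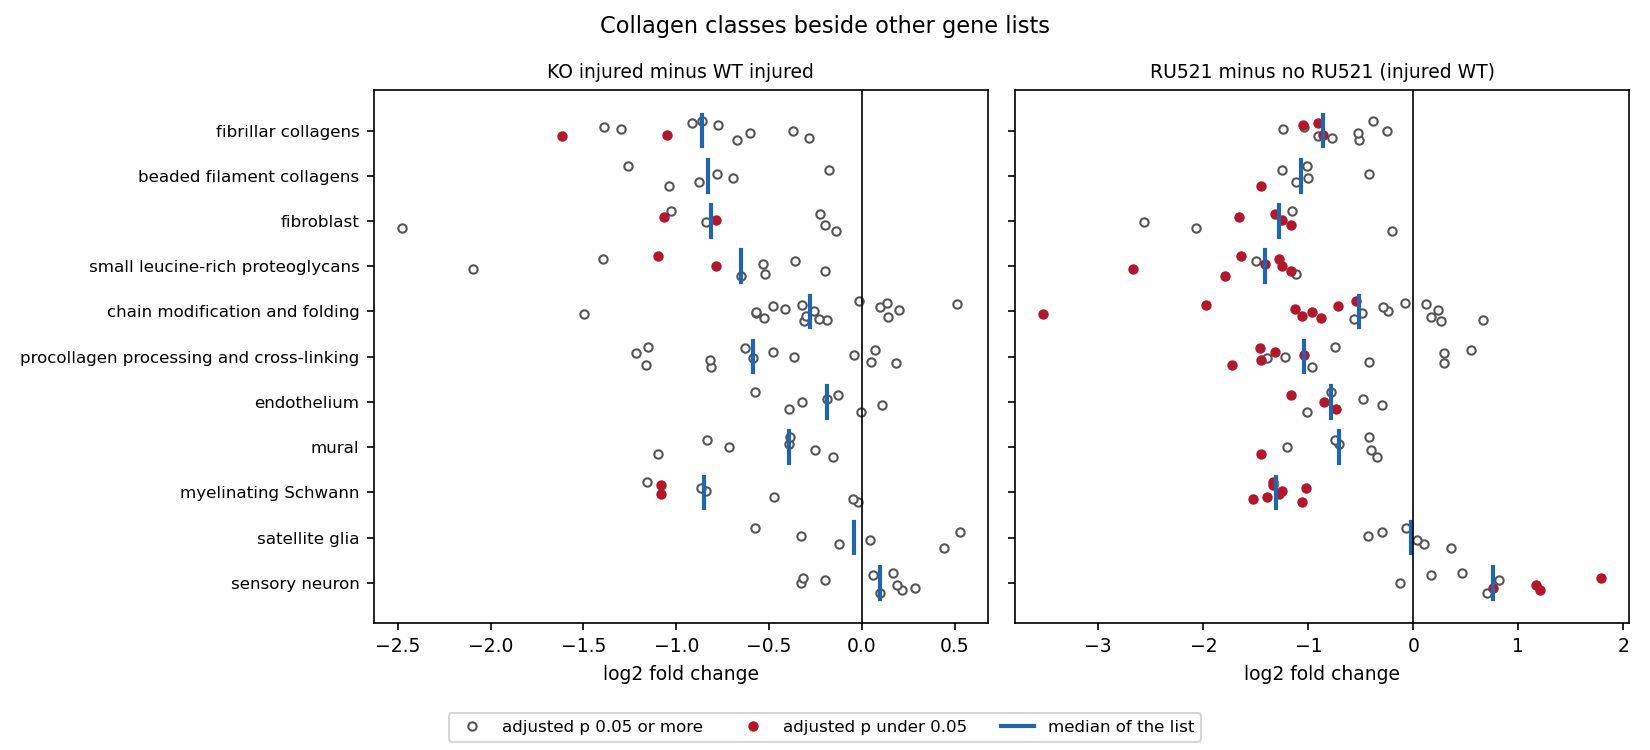
Log2 fold changes of the genes of 2 collagen classes and 9 other lists for the KO label in injured ganglia and for RU521 in injured WT ganglia; each point is a gene, filled where the adjusted p was under 0.05, and the bar is the list's median. Fibrillar collagens have medians of -0.86 in both panels, and sensory neuron markers have medians of 0.10 and 0.76.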

How the data were processed

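Gene counts of 15 ganglion libraries were used as the authors deposited them: whole-number read counts per gene with gene lengths, made with featureCounts 2.0.1 on an Ensembl release 101 annotation per the file headers, counting primary read pairs of mapping quality 10 or more without regard to strand. The submitters' processing notes name Trim Galore for trimming, STAR for alignment and GRCm38 (mm10) as the genome, without versions. Full-length cDNA was made with a SMART-Seq kit and cut with Tn5 per the labels' protocols, with no molecular identifiers, so intervals and the floor of 3 counts cover counting error only. A table of retinal cells was not used.

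The 5 groups were fitted together in edgeR 4.0.16 (R 4.3.3, TMM scaling, quasi-likelihood test, Benjamini-Hochberg adjustment over the 18517 genes left by filterByExpr with a minimum count of 10 and minimum total of 15, threshold 0.05). The biological coefficient of variation was 0.262. Genes detected have a count above 0. The fit was tested on simulated data with known changes. Alternatives were DESeq2 1.42.0, DESeq2 size factors, no filter, a replicate block, detected genes as a covariate, the compared groups alone, WT sham replicates 1 and 3 left out, and each library left out. No pair of libraries was identical. The labels do not say whether replicate numbers pair the libraries. The correlations of deviations of 30 same-number pairs ran from -0.116 to 0.267, with 6 over 0.1. Those 6 lay between replicates 1 or replicates 2 of the WT sham, KO-labelled sham and RU521 groups. Pairs of unlike number were not set beside them, so these values cannot decide whether libraries were paired. Values in every library of the groups compared are given for most members past the threshold in the fit of all libraries; other classes and lists are given by counts and their highest or called members. The members and lists were chosen with earlier results of these data known.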

Additional observations from a re-analysis of the deposited data

How the results depend on the processing

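Each count of called collagen genes is followed by the share of all genes called, in either direction, in the same fit. For the KO label in injured ganglia, 4 became 12 with no filter (1.44%), 21 with the compared groups alone (11.1%), 10 in DESeq2 (4.26%) and 14 without WT sham replicates 1 and 3 (3.66%), and 1 to 14 with 1 library left out (1.0% to 5.05%). For the KO label in sham ganglia, 1 became 2 with DESeq2 size factors (0.146%), 13 with no filter (1.21%), 12 with detected genes as covariate (1.04%), 0 with the compared groups alone (0.0121%), 9 in DESeq2 (1.4%) and 16 without WT sham replicates 1 and 3 (6.29%), and 0 to 5 with 1 library left out (0.0103% to 5.07%). Averaged over both, 12 became 22 without WT sham replicates 1 and 3 (6.59%), and 7 to 15 with 1 library left out (1.17% to 7.58%). For RU521, 9 became 16 with no filter (4.79%), 18 with the compared groups alone (10.5%) and 14 in DESeq2 (15.2%), and 4 to 17 with 1 library left out (2.45% to 18.0%). With detected genes as covariate, the fibrillar genes Col1a2, Col5a1 and Col5a2 no longer passed for RU521 (edgeR adjusted p = 0.079, 0.0937 and 0.097). For injury in WT ganglia, 2 became 0 with the covariate (4.58%), 1 with the compared groups alone (9.98%) and 5, all lower, without WT sham replicates 1 and 3 (7.28%), and 0 to 20 with 1 library left out (6.37% to 33.9%). For injury in KO-labelled ganglia, 0 became 7 with no filter (5.08%), 5 with the covariate (16.6%), 8 with the compared groups alone (24.6%), 3 in DESeq2 (15.7%) and 8 without WT sham replicates 1 and 3 (14.8%), and 0 to 7 with 1 library left out (4.47% to 19.0%). For the difference of injury effects, 0 became 6 without WT sham replicates 1 and 3 (5.04%), and 0 to 1 with 1 library left out (0.19% to 3.46%). With the replicate block, counts were 3 for the KO label in injured (2.37%), 2 in sham (0.383%) and 12 over both (2.79%), 10 for RU521 (11.5%), 3 for injury in WT (19.0%), 1 for injury in KO-labelled ganglia (13.4%) and 0 for the difference (0.702%); the labels share only numbers. Directions in comparisons that use WT sham libraries also depended on them. Of 43 genes, 34 were negative for the KO label in sham ganglia and 21 without WT sham replicate 2. For injury in WT ganglia 30 were positive, 40 without WT sham replicate 2 and 12 without replicates 1 and 3. The injury value of Col1a2 in WT ganglia reversed and was -0.00 with all libraries. With 1 library left out it ran from -0.236 without WT sham replicate 1 to 0.497 (edgeR adjusted p = 0.00991) without WT sham replicate 2. With WT sham replicate 2 as the sole WT sham library it was -0.629. The cause of these moves was not tested beyond the libraries named. Genes at a few counts, such as Col4a6, are limited by depth.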
